A study of Homo sapiens with 18 samples.

Results

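The genes of cholesterol synthesis, uptake, storage and efflux were followed through 34 members of the 61806 genes in the count table. They comprise 18 enzymes of synthesis, 4 genes of SREBP control, 6 genes of uptake and transport, 2 genes of storage and 4 genes of the LXR and efflux arm. Members were the rows whose Ensembl gene identifier maps to a fixed list of symbols. No value was used to pick rows from that list, but the list was drawn up with earlier results of these data known. All 34 had a row in both deposited tables and all 34 passed the filter on low counts, which left 19743 genes for testing.

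Cells make cholesterol from acetyl-CoA through mevalonate and squalene, a linear hydrocarbon that is closed to lanosterol and then trimmed to cholesterol. When sterol is scarce, SCAP escorts the transcription factor precursor made from SREBF2 out of the endoplasmic reticulum to be cut and to switch on the enzymes of this route, and when sterol is plentiful the INSIG proteins hold SCAP back. Surplus cholesterol activates the LXR receptors, which induce export pumps such as ABCA1, or is esterified by the SOAT enzymes and stored in droplets. Liver cells are a main site of all these steps, and several of the enzymes after squalene use molecular oxygen as a substrate.

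HepG2 is a line of human hepatoma cells, and an edited line was made from it with CRISPR-Cas9 ribonucleoprotein carrying 2 guide RNAs against exons 1 to 3 of APOA4, followed by growth from picked single colonies. Cells of both lines were harvested before hypoxia (0 h, 21% oxygen) and following 24 h or 48 h in 1% oxygen, giving 6 groups of 3 poly(A) RNA-seq libraries. Only the 0 h cells were outside hypoxia, so hypoxia and time in culture cannot be told apart, nor can the edit and any other difference between HepG2 and the edited clone. The labels do not say whether libraries of a group came from separate cultures, and the p-values then measure the spread between these libraries, which may be technical.

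Counts assigned to APOA4 were present in every library of the edited line. In HepG2 its FPKM (counts scaled to the length of the gene and the total of the library) was 6.08, 6.56 and 5.73 at 0 h, then 12.79, 12.8 and 13.54 at 24 h and then 12.88, 13.64 and 14.93 at 48 h. Libraries of the edited line measured 5.72, 5.39 and 4.84 at 0 h, then 5.63, 5.1 and 5.37 at 24 h and then 4.76, 5.27 and 5.19 at 48 h. The targeted gene was therefore lower in the edited line at 24 h and 48 h, by log2 differences of -1.35 and -1.29, and by -0.23 at 0 h (adjusted p = 0.04). Of the exon bases of APOA4, 43.1% overlap a gene on the opposite strand, and the strand setting of the counting is not known, so part of these counts may not be APOA4 RNA. Since counts persisted, the line is called KO-labelled below. The study reports checking the edit by PCR gel and by sequencing, and keeping clones mutated in both alleles. RNA counts do not test that edit.

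Library totals ranged from 76481820 to 91604947 counts. The 6 hepatocyte markers were detected in every library, with a summed level of 22646 to 23095 CPM (the count scaled to the library total with TMM) in HepG2 at 0 h and of 34325 to 35660 CPM in KO-labelled cells at 48 h. The sum hides differences between the lines. AFP was higher in KO-labelled cells by 2.88, 3.00 and 2.71 on the log2 scale at 0 h, 24 h and 48 h, and FGB by 1.55, 2.75 and 1.35. ALB (0.45, 0.29 and 0.18) and HNF4A (0.16, 0.35 and 0.17) were higher by less. AHSG gave 0.13, -0.48 and 0.68, and APOA2 gave 0.30, -0.08 (not called) and 0.56. Markers of monocytes and macrophages summed to 1044 to 1052 CPM in HepG2 at 0 h and to 2012 to 2071 CPM at 24 h, with up to 2781 CPM over all groups, of which LYZ made up 1037 to 2770 CPM. Group means of CD14 were 4.59 to 7.73 CPM and those of PTPRC 2.47 to 5.28 CPM, while group means of CSF1R, ITGAM and CD33 were all under 1 CPM. The 4 fibroblast markers summed to 28 to 53.7 CPM, most of it PDGFRB, which rose by 0.79 on the log2 scale in HepG2 at 24 h, and the 4 endothelial markers summed to 8.45 to 16.1 CPM. At 0 h COL1A1 (1.68) and PDGFRB (0.20) were higher in KO-labelled cells, COL1A2 was not called (0.06) and DCN was not tested. Of the endothelial markers at 0 h, CDH5 (2.58) and PECAM1 (0.60) were higher, VWF was lower (-0.49) and KDR was not called (3.25). At 48 h VWF was lower (-0.88), while PECAM1 (-0.15), CDH5 (2.04) and KDR (-0.22) were not called. These levels moved with the groups compared here, and their part in the results was not tested. In bulk RNA, fewer cells of a type and less RNA per cell cannot be told apart.

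The stretches before the start of 6 members are shown because they stand for the patterns described below. They are the SREBP precursor gene, an early and a late synthesis enzyme that were low in hypoxic KO-labelled cells (MVD and NSDHL), an oxygen-using enzyme that was not (CYP51A1), the retention protein INSIG2 and the pump ABCA1. Sequences are from RefSeq (GRCh38.p14), and positions count back from the annotated start, the base before it being -1. Capitals mark TCACNCCAC, a core of the sterol regulatory element, and CCAAT, the box bound by NF-Y, in the first 3 stretches, and ACGTG or GCGTG, the core that hypoxia-inducible factors bind, in the last 3, each searched on both strands, so that a match on the other strand is read in reverse complement. The hypoxia core is not marked in the first 3, although their promoters hold it too. Over all bases searched before the start, SREBF2 held 1 match, MVD 3 and NSDHL 3. CYP51A1, INSIG2 and ABCA1 held 2 each, so the marking is no contrast in this core. The stretches leave out bases that GENCODE v29 places in an exon of a protein-coding gene. They lie at chr22:41832855-41833078 (SREBF2, + strand), chr16:88663162-88663341 (MVD, - strand), chrX:152830813-152830966 (NSDHL, + strand), chr7:92134531-92134665 (CYP51A1, - strand), chr2:118088221-118088451 (INSIG2, + strand) and chr9:104928238-104928405 (ABCA1, - strand).
SREBF2: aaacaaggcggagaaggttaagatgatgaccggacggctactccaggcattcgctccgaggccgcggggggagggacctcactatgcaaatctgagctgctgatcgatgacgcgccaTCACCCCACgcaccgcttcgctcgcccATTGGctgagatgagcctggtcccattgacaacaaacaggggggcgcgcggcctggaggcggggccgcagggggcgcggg
MVD: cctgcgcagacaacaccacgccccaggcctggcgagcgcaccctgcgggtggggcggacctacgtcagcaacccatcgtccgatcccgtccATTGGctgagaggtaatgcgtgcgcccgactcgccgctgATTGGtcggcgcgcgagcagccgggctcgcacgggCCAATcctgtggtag
NSDHL: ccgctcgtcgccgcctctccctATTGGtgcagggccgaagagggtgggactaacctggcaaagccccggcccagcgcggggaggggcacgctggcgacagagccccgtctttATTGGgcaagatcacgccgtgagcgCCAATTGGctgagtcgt
CYP51A1: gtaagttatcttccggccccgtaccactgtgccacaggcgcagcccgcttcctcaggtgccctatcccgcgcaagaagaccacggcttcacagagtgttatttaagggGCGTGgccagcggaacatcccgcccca
INSIG2: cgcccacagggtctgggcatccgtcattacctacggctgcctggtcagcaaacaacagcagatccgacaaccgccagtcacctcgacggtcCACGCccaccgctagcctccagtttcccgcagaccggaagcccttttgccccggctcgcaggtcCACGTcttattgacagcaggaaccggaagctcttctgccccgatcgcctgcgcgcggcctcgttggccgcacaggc
ABCA1: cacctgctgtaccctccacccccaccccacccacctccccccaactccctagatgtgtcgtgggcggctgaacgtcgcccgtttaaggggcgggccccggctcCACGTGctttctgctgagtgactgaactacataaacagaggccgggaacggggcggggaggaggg

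Promoters of 28 members were in the table, 38 in all, and the 6 others were ABCG1, ACAT2, FDFT1, SCARB1, SOAT2 and SQLE. Within the 250 bases before the start, CCAAT occurred in 15 of the 20 promoters of synthesis enzymes and in 32% of all 35116 promoters of the same length. The sterol element core occurred in 1 member promoter, that of SREBF2 at -133, and in 0.883% of all promoters. NSDHL held CCAAT at 4 places in its stretch, and the matches at -113 and -110 overlap on opposite strands. ACGTG or GCGTG occurred in 17 of the 20 synthesis promoters, in 28 of the 38 member promoters and in 43.2% of all. In ABCA1 the matches at -147 and -146 are both strands of 1 palindrome, CACGTG. INSIG2 held matches at -159 and -95, and CYP51A1, which had no CCAAT in its 250 bases, held GCGTG at -80. A strict form of DR4, the direct repeat that LXR binds, matched none of the member promoters and 0.0142% of all. A match is a description of letters, and a window without a match does not speak for or against a factor.

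Before hypoxia, most synthesis enzymes stood higher in KO-labelled than in HepG2 cells. Of the 18 enzymes 14 were higher and 2 lower at an adjusted p under 0.05, while 12.9% of all tested genes were higher and 17.6% lower. The median log2 fold change of the 18 was 0.22, against -0.01 for all tested genes, and the largest was that of HMGCS1. HMGCS1, which condenses acetyl units into HMG-CoA, had an FPKM of 18.42, 17.49 and 17.92 in HepG2 and of 25.8, 26.54 and 26.44 in KO-labelled cells (log2 fold change 0.53, SE 0.04, adjusted p = 1.6e-09). SQLE, the epoxidase that acts on squalene, measured 47.53, 48.47 and 48.17 against 67.84, 67.41 and 67.72 (0.47, SE 0.03, adjusted p = 7.9e-11). CYP51A1, which removes a methyl group of lanosterol, measured 27.43, 27.79 and 27.25 against 40.72, 40.18 and 39.42 (0.52, SE 0.03, adjusted p = 3.8e-11). For these 3 enzymes every KO-labelled library lay above every HepG2 library. HSD17B7, a ketoreductase of the late pathway, was higher by 0.47 on the log2 scale, MSMO1 by 0.38, ACAT2 by 0.33 and FDPS by 0.32, while LSS, the cyclase that makes lanosterol, differed by 0.01 (SE 0.03).

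The 2 enzymes that were lower at 0 h were PMVK and TM7SF2. PMVK, which phosphorylates mevalonate phosphate, had an FPKM of 16.33, 15.62 and 18.48 in HepG2 and of 13.42, 15.02 and 12.65 in KO-labelled cells. The groups did not overlap (log2 fold change -0.32, SE 0.09, adjusted p = 0.009), but the adjusted p was up to 0.061 when the third library of either group was left out. TM7SF2, a sterol reductase, was lower by 0.09 on the log2 scale (adjusted p = 0.011), a call that was lost with another scaling of the libraries.

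In HepG2, synthesis enzymes fell in hypoxia. At 24 h against 0 h 13 of the 18 were lower and 2 higher, against 18.3% and 11.4% of all tested genes, and at 48 h against 0 h 16 were lower and none higher, against 14.6% and 13.1%. The other 2 at 48 h were PMVK (0.04, SE 0.09) and SC5D (-0.05, SE 0.05). The medians of the 18 were -0.28 and -0.32 on the log2 scale, with medians of all genes of -0.03 at both times, and no enzyme reached a log2 change of 1 in size. MVK, mevalonate kinase, had an FPKM of 10.36, 10.25 and 10.44 at 0 h, then 6.38, 6.2 and 6.43 at 24 h and then 6.75, 6.38 and 6.54 at 48 h. It was the enzyme with the deepest fall at 24 h (-0.63, SE 0.04, adjusted p = 3.8e-10), and its 24 h and 48 h libraries overlapped. LSS fell by 0.61 and 0.74 on the log2 scale, from 57.0 ± 1.29 FPKM at 0 h to 35.4 ± 0.802 and 34.5 ± 1.08 (SD, n = 3).

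From 24 h to 48 h in HepG2 the enzymes went different ways. Of the 18, 3 were higher and 7 lower, against 18.7% and 11.9% of all tested genes, and with library sizes alone in place of TMM the split was 7 higher and 3 lower, with a median of all genes of 0.10. With RLE scaling it was 1 higher and 8 lower, with a median of all genes of -0.02. IDI1, the isomerase of the isoprene building blocks, regained level, from 10.4 ± 0.15 to 14.7 ± 0.243 FPKM (log2 fold change 0.41, SE 0.04, adjusted p = 7.4e-08). FDPS and DHCR7 fell by 0.39 and 0.40 on the log2 scale. Both had been slightly higher at 24 h than at 0 h, by 0.10 and 0.15, and the 24 h call of FDPS was lost without the second 0 h library or the first 24 h library (adjusted p up to 0.561 over all alternatives). FDPS has 8 pseudogenes, and 18.6% of its exon bases overlap a gene on the opposite strand, so its count is uncertain in every comparison.

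Most synthesis enzymes were lower in hypoxia in KO-labelled cells as well. At 24 h against 0 h 15 of the 18 enzymes were lower and 2 higher, against 22.8% and 21.5% of all tested genes, with a median of -0.47. At 48 h against 0 h again 15 were lower and 2 higher, against 25.9% and 23.9%, and the median was -0.68, with -0.07 for all genes. With library sizes alone the 48 h split was 0 higher and 18 lower, and the median of all genes was then -0.23. Of the 18 enzymes 4 passed both an adjusted p under 0.05 and a log2 change of 1 in size at 24 h, and 5 at 48 h, against 5.88% and 12.2% of all genes. At 24 h these were MVK (-1.22), MVD (-1.11), TM7SF2 (-1.08) and LSS (-1.01), and at 48 h MVK (-1.41), TM7SF2 (-1.33), NSDHL (-1.24), ACAT2 (-1.12) and LSS (-1.05).

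MVK in KO-labelled cells had an FPKM of 11.98, 11.69 and 11.64 at 0 h, then 4.85, 5.09 and 4.94 at 24 h and then 3.75, 3.96 and 4.15 at 48 h. MVD, which makes isopentenyl diphosphate, measured 58.9, 55.26 and 52.86 at 0 h, then 25.63, 24.45 and 25.73 at 24 h and then 26.82, 27.8 and 27.22 at 48 h. NSDHL, a decarboxylating dehydrogenase of the C4 demethylation, measured 53.74, 55.12 and 52.91 at 0 h, then 27.21, 25.32 and 27.96 at 24 h and then 19.84, 21.07 and 20.39 at 48 h. In all 3 enzymes the 0 h libraries stood clear above both hypoxic groups, and MVK and NSDHL were lower at 48 h than at 24 h while MVD was higher (-0.20, -0.26 and 0.24 on the log2 scale). In HepG2, NSDHL and MVD stayed nearer to their start. NSDHL there measured 46.96, 45.88 and 45.78 at 0 h, then 33.22, 32.56 and 32.85 at 24 h and then 38.08, 35.04 and 36.62 at 48 h. HepG2 measured 46.26, 46.3 and 46.7 FPKM of MVD at 0 h, then 33.22, 32.12 and 32.1 at 24 h and then 32.52, 33.9 and 32.32 at 48 h.

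How the fall compared along the route depended on the grouping, and the grouping by oxygen use was made after the values were seen. In KO-labelled cells at 48 h against 0 h all 8 enzymes up to squalene were lower, with a median of -0.68. Of all 10 enzymes after squalene 7 were lower and 2 higher, with a median of -0.51. Of all tested genes 25.9% were lower and 23.9% higher. In HepG2 the medians of the 8 and the 10 were -0.34 and -0.29. Of the 6 enzymes after squalene that use no oxygen 5 were lower in KO-labelled cells at 48 h, with a median of -0.97. The exception was DHCR7, the last reductase, at 0.07 (SE 0.02, adjusted p = 0.01), which turned to -0.09 with library sizes alone. PMVK and HMGCS1 fell by 0.71 and 0.51 on the log2 scale, and FDFT1, which makes squalene and had the highest FPKM of the members at 0 h in HepG2 (148 ± 1.31), fell by 0.44. From 24 h to 48 h in these cells 4 of the 18 were higher and 10 lower, against 21.9% and 19.4% of all tested genes, and the 2 largest falls were those of ACAT2 (-0.60), the acetoacetyl-CoA thiolase, and HSD17B7 (-0.54).

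**Figure D1:**
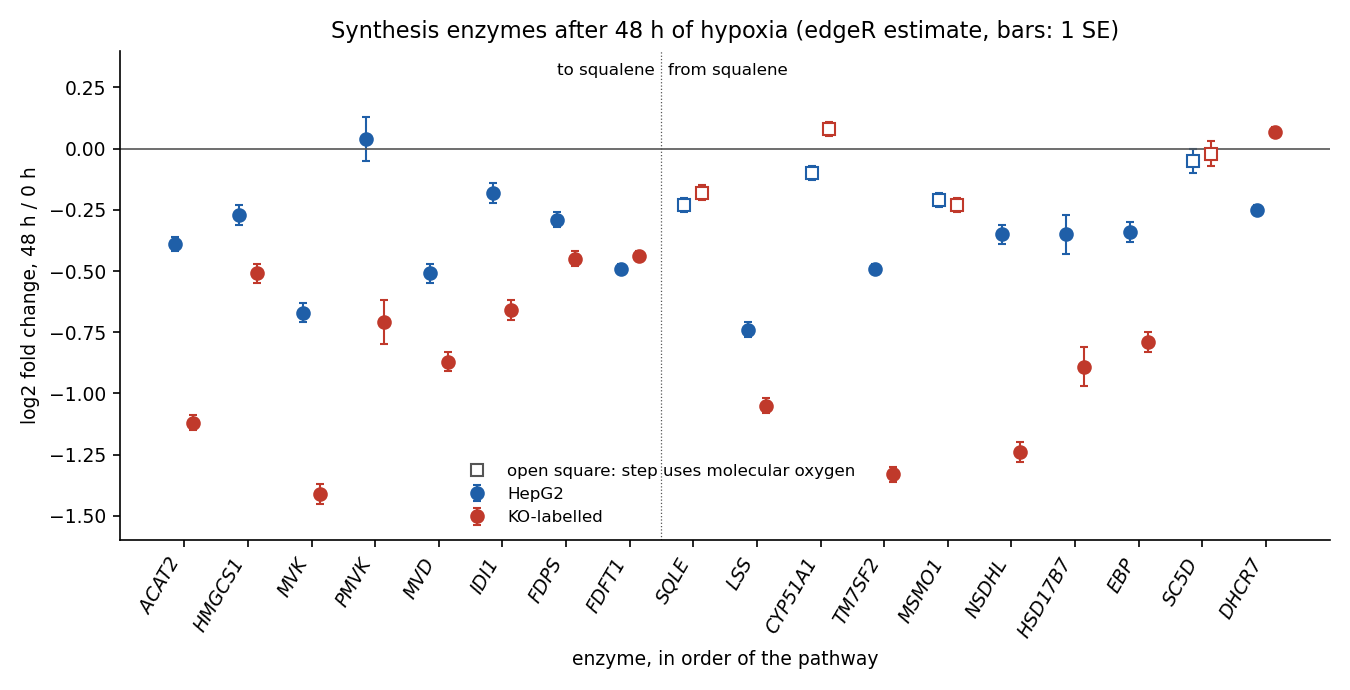
Log2 fold change from 0 h to 48 h of hypoxia (vertical axis) for the 18 synthesis enzymes in pathway order (horizontal axis), in HepG2 and in KO-labelled cells, with SE as bars, 3 libraries a group. Open squares are enzymes that use molecular oxygen and the dotted line marks squalene. KO-labelled values reach -1.41 (MVK), and the 4 oxygen-using enzymes lie between -0.23 and 0.08 in both lines.

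The 4 oxygen-using enzymes, SQLE, CYP51A1, MSMO1 and SC5D, had smaller median changes from 0 h than the other 14 in both lines. In HepG2, 2 of the 4 fell at 24 h and 3 at 48 h and none rose, with medians of -0.08 and -0.16 against -0.39 and -0.35 for the 14. Of all tested genes in HepG2, 18.3% fell and 11.4% rose at 24 h, and 14.6% fell and 13.1% rose at 48 h. In KO-labelled cells 1 fell and 2 rose at 24 h and 2 fell and 1 rose at 48 h, with medians of 0.04 and -0.10 against -0.66 and -0.83. Of all tested genes in these cells, 22.8% fell and 21.5% rose at 24 h, and 25.9% fell and 23.9% rose at 48 h. The split into 4 and 14 enzymes was made from textbook biochemistry after the values were seen, and it is a description. The mean log2 CPM of the 4, relative to HepG2 at 0 h, was 0.39 ± 0.01 in KO-labelled cells at 0 h, 0.34 ± 0.05 at 24 h and 0.30 ± 0.02 at 48 h (SD, n = 3). For the other 14 enzymes it was 0.16 ± 0.03, -0.52 ± 0.02 and -0.65 ± 0.01. In HepG2 the 4 stood at -0.11 ± 0.06 and -0.15 ± 0.01 at 24 h and 48 h, and the 14 at -0.35 ± 0.01 and -0.38 ± 0.03. The gap between the 4 and the 14 thus was 0.22 ± 0.04 in KO-labelled cells before hypoxia and 0.95 ± 0.03 at 48 h, and 0.23 ± 0.02 in HepG2 at 48 h.

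CYP51A1 in KO-labelled cells had an FPKM of 42.87, 44.19 and 42.65 at 24 h and of 39.06, 37.92 and 37.03 at 48 h, close to its 0 h libraries. It was higher than at 0 h by 0.14 at 24 h and by 0.08 at 48 h on the log2 scale (adjusted p = 0.00034 and 0.02), and the 48 h change was -0.08 with library sizes alone. In HepG2 its libraries measured 25.03, 25.79 and 26.19 at 24 h and 26.17, 25.39 and 26.16 at 48 h, and the 48 h change of -0.10 (adjusted p = 0.009) was lost without any of 4 libraries (the first or second at 0 h, the second or the third at 48 h). Of the exon bases of CYP51A1, 83.2% are shared with other annotated genes and it has 3 pseudogenes, so its count is uncertain. SQLE in KO-labelled cells measured 62.2, 66.54 and 61.59 at 24 h and 53.8, 52.44 and 54.33 at 48 h. Its HepG2 libraries measured 42.19, 41.97 and 43.27 at 24 h and 40.87, 41.48 and 42.22 at 48 h. SQLE was lower at 48 h than at 0 h, by 0.18 in KO-labelled cells and 0.23 in HepG2 on the log2 scale, and every KO-labelled library lay above every HepG2 library at each time. SC5D, the sterol desaturase, was higher at 24 h in KO-labelled cells (0.21, SE 0.05) and did not pass at 48 h (-0.02, SE 0.05). MSMO1, the C4 methyl oxidase, fell by 0.45 and 0.23.

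**Figure D2:**
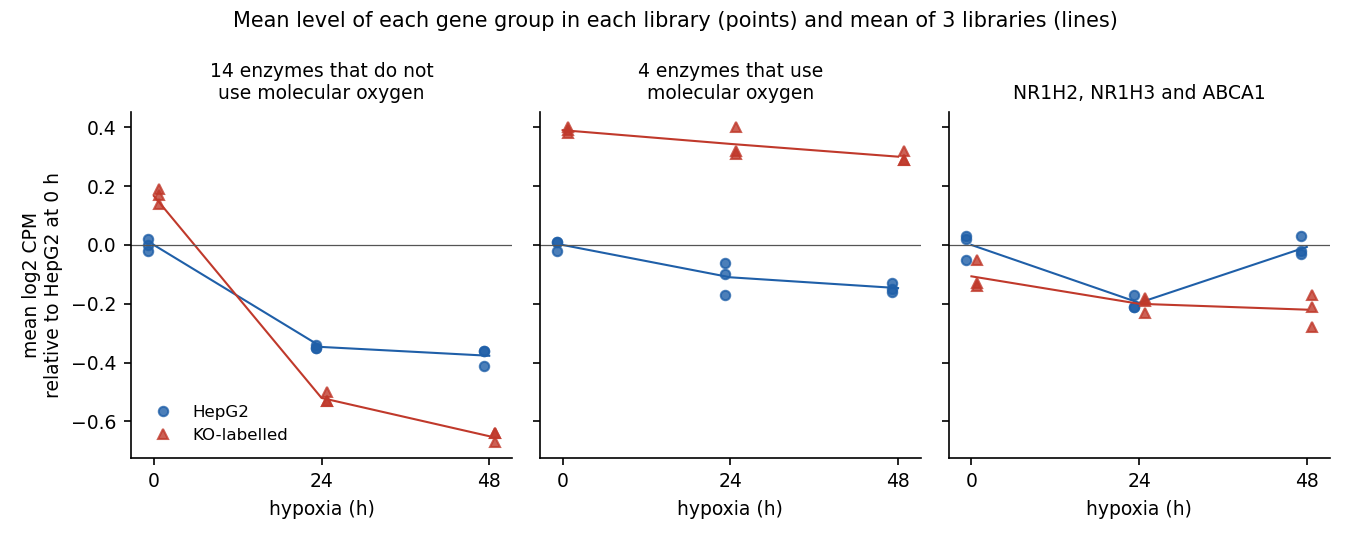
Mean log2 CPM relative to HepG2 at 0 h (vertical axis) in each of the 18 libraries by hour of hypoxia (horizontal axis) and line, for the 14 enzymes that use no oxygen, the 4 that do, and NR1H2, NR1H3 and ABCA1 together. The 14 enzymes end at -0.65 in KO-labelled cells at 48 h, and the 4 remain between 0.29 and 0.40 in every KO-labelled library.

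Compared at the same time in hypoxia, the lines no longer differed in 1 direction over the route. At 24 h 7 of the 18 enzymes were higher and 10 lower in KO-labelled cells, against 23.6% and 24.6% of all tested genes, and at 48 h 8 were higher and 9 lower, against 23.5% and 27.3%. With library sizes alone the 48 h split was 5 higher and 10 lower, where the median of all genes was -0.19. There were 6 enzymes higher at 0 h and lower at 24 h, and 5 that were higher at all 3 times. The share of all tested genes with either pattern was not computed, so these 2 counts have no background. All 4 oxygen-using enzymes were higher at 0 h, 24 h and 48 h, with medians of 0.42, 0.48 and 0.44, whereas of the other 14 enzymes 10, 3 and 4 were higher and 2, 10 and 9 lower. At 0 h 12.9% of all tested genes were higher and 17.6% lower. The call of SC5D at 0 h was lost without the third KO-labelled library (adjusted p = 0.056), and at 48 h it was lost with library sizes alone.

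PMVK was the enzyme furthest below HepG2 at 48 h. Its libraries measured 18.08, 17.55 and 16.65 FPKM in HepG2 and 8.3, 7.45 and 6.84 in KO-labelled cells, without overlap (log2 fold change -1.06, SE 0.09, adjusted p = 7.3e-09). At 24 h they measured 12.84, 14.41 and 13.54 in HepG2 and 10.22, 9.3 and 10.69 in KO-labelled cells. It was the only synthesis enzyme past both limits in a comparison of the lines, and 13.6% of all tested genes passed both at 48 h. TM7SF2 was lower by 0.93, NSDHL by 0.69, MVK by 0.58 and EBP, the sterol isomerase, by 0.55 on the log2 scale. HMGCS1 measured 14.59, 15.25 and 15.23 FPKM in HepG2 at 48 h and 16.57, 16.17 and 16.73 in KO-labelled cells, still higher in every library (0.28, SE 0.04). At 24 h its values were 12.86, 13.11 and 13.97 against 20.29, 21.81 and 19.98 (0.57, SE 0.04). DHCR7 changed sides, being lower at 24 h (-0.22) and higher at 48 h (0.50). MVD was lower by 0.12 at 48 h (adjusted p = 0.009), with an adjusted p of 0.130 under another scaling.

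The change from 0 h differed between the lines for most enzymes. For the 24 h change the difference, KO-labelled minus HepG2, was negative for 11 of the 18 and positive for 3, against 15.4% and 16.8% of all tested genes. For the 48 h change it was negative for 12 and positive for 2, against 17.8% and 18.6%. The medians were -0.32 and -0.34, with -0.01 and -0.04 for all genes, and with library sizes alone the 48 h split was 1 positive and 15 negative at a median of all genes of -0.21. MVD had the most negative difference at 24 h (-0.67, SE 0.05, adjusted p = 1.2e-08) and NSDHL at 48 h (-0.89, SE 0.06, adjusted p = 7.4e-10). MVK differed by -0.58 and -0.74. At 48 h, TM7SF2 differed by -0.84, ACAT2 by -0.73 and PMVK by -0.74. The positive differences at 48 h were those of DHCR7 (0.32) and CYP51A1 (0.18, lost with library sizes alone). Of the exon bases of ACAT2, 52.3% overlap genes on the opposite strand, and whether strand was used in the counting is not stated.

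**Figure D3:**
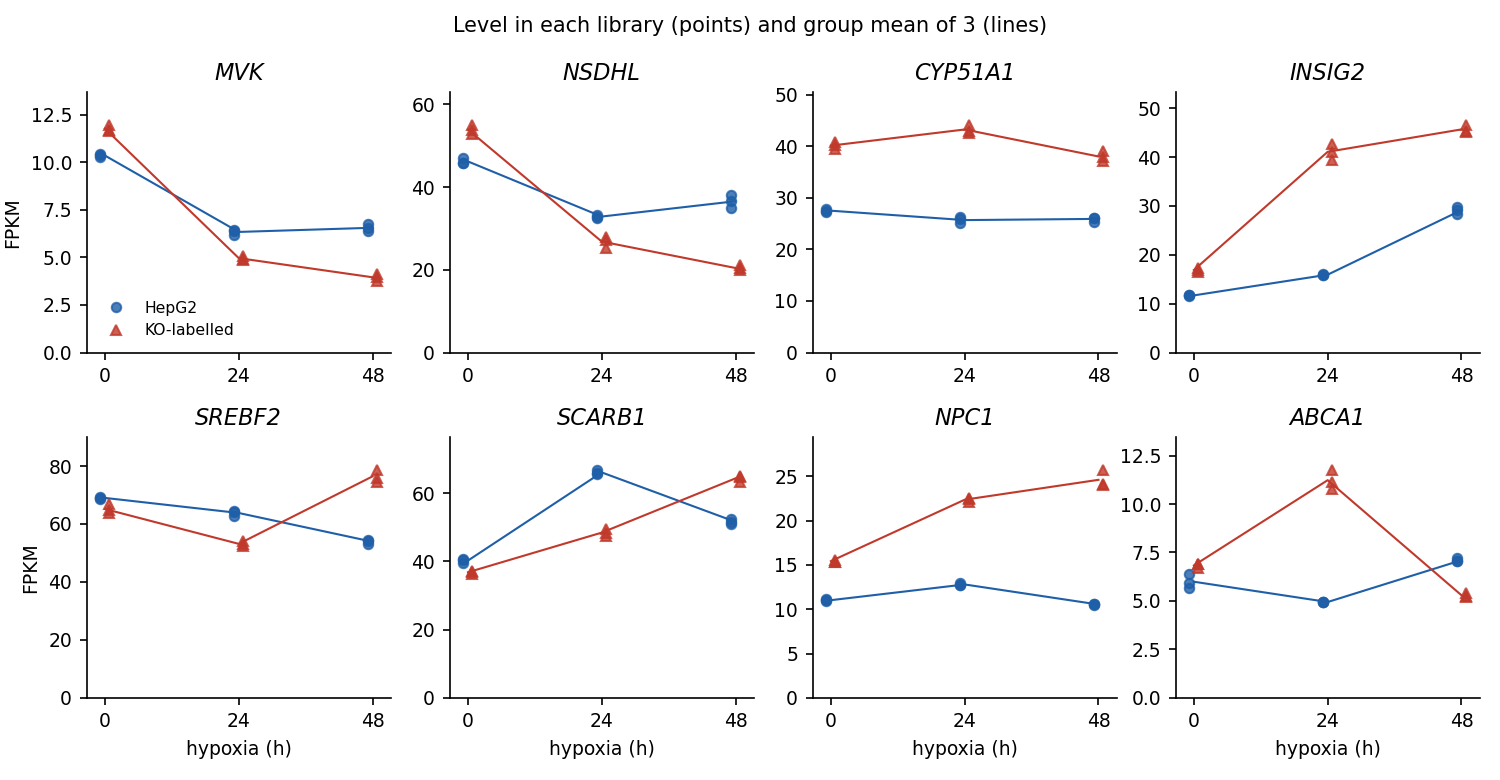
FPKM (vertical axis, from 0) of 8 members in each library, by hour and line, with 1 point a library and lines joining the group means. MVK and NSDHL fall further in KO-labelled than in HepG2 cells, CYP51A1 stays at 37.03 or more in KO-labelled libraries, and ABCA1 peaks at 24 h in KO-labelled cells.

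Among the 4 genes of SREBP control, INSIG2 rose in both lines and SREBF2 turned between 24 h and 48 h. INSIG2, which holds SCAP in the endoplasmic reticulum, had an FPKM of 11.71, 11.85 and 11.52 in HepG2 at 0 h, then 15.9, 15.78 and 16.12 at 24 h and then 28.33, 29.89 and 29.24 at 48 h. KO-labelled cells had values of 16.94, 17.28 and 16.43 at 0 h, then 41.14, 42.73 and 39.4 at 24 h and then 46.67, 45.28 and 45.09 at 48 h. No libraries of different times overlapped within a line, and KO-labelled libraries lay above HepG2 libraries at each time. HepG2 gained 0.52 on the log2 scale by 24 h and 1.30 by 48 h (SE 0.03 each), KO-labelled cells 1.31 and 1.59 (SE 0.03 each). The line difference in the change was thus 0.79 at 24 h (SE 0.04, adjusted p = 1.5e-10) and 0.29 at 48 h (SE 0.04, adjusted p = 2.2e-05). INSIG2 was the member with the largest rise from 0 h at 48 h in HepG2 and at both times in KO-labelled cells, and it stood 1.30 above HepG2 at 24 h.

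SREBF2, the gene of the sterol-responsive transcription factor, measured 69.03, 68.5 and 69.47 FPKM in HepG2 at 0 h, then 64.18, 62.79 and 64.41 at 24 h and then 54.03, 53.17 and 54.42 at 48 h. Its KO-labelled libraries stood at 67.0, 64.72 and 63.79 at 0 h, then 52.99, 52.3 and 54.14 at 24 h and then 75.96, 74.65 and 78.67 at 48 h. At 48 h the lines had moved apart, with HepG2 at its lowest and KO-labelled cells at their highest. The change from 0 h to 48 h was -0.37 in HepG2 and 0.39 in KO-labelled cells (SE 0.03 each), and the difference of the changes was 0.76 (SE 0.04, adjusted p = 7.2e-12). At 24 h that difference was -0.22 (adjusted p = 7.6e-05). SCAP measured 38.2 ± 0.0721 and 36.4 ± 0.352 FPKM at 0 h in HepG2 and KO-labelled cells, 32.2 ± 0.636 and 25.0 ± 0.774 at 24 h, and 34.9 ± 0.79 and 33.9 ± 1.11 at 48 h. It was lower in KO-labelled cells at 24 h (-0.44, SE 0.03). Its line difference at 48 h was called higher (0.11, adjusted p = 0.004) and became -0.04 with library sizes alone, and the call at 0 h (-0.09) was lost without any of 4 libraries (each HepG2 library, or the third KO-labelled one).

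INSIG1, the sterol-induced partner of INSIG2, had few counts in the deposited table, and whether the annotation or the counting lost reads of it was not settled, so its values need not be its RNA level. Its counts were 89, 41 and 46 in HepG2 at 0 h, then 50, 61 and 10 at 24 h and then 8, 12 and 33 at 48 h, and 158, 134 and 116, then 170, 87 and 71, then 38, 36 and 59 in KO-labelled cells. KO-labelled libraries lay above HepG2 libraries at each time. The differences at 24 h and 48 h were called (1.46 and 1.62 on the log2 scale, SE 0.56 and 0.59, adjusted p = 0.038 and 0.028), but each was lost when any of 2 or 3 single libraries was left out, with an adjusted p of up to 0.179 at 24 h and 0.215 at 48 h over all alternatives. At 24 h these were the third HepG2 and the first KO-labelled library, and at 48 h the first or second HepG2 and the third KO-labelled library. Its falls from 0 h to 48 h (-1.82 in HepG2, adjusted p = 0.025; -1.40 in KO-labelled cells, adjusted p = 0.043) were lost in the same way, among others without the first 0 h library or the second 48 h library of the line concerned. Every library held fewer than 200 counts of INSIG1.

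The 6 genes of uptake and transport did not move as a group. At 0 h 2 were higher and 3 lower in KO-labelled cells, against 12.9% and 17.6% of all tested genes. At 24 h it was again 2 and 3, against 23.6% and 24.6%, and at 48 h 2 and 1, against 23.5% and 27.3%. NPC1, which exports cholesterol from lysosomes, had an FPKM of 10.89, 11.03 and 11.14 in HepG2 at 0 h, then 12.7, 12.71 and 12.97 at 24 h and then 10.61, 10.55 and 10.42 at 48 h. In KO-labelled cells it measured 15.36, 15.38 and 15.53 at 0 h, then 22.59, 22.41 and 22.07 at 24 h and then 24.08, 24.0 and 25.72 at 48 h. KO-labelled cells thus had the higher level in every library and gained further in hypoxia, and HepG2 at 48 h was back near its start (-0.08, adjusted p = 0.032, lost without any 1 of its 0 h or 48 h libraries). The lines differed by 0.46 at 0 h, 0.74 at 24 h and 1.37 at 48 h on the log2 scale (SE 0.03 each). NPC1 had the largest positive line difference of the members in the 48 h change (0.91, SE 0.04, adjusted p = 1.2e-12). NPC2, its soluble partner, was lower in KO-labelled cells at all 3 times (-0.34, -0.18 and -0.48).

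SCARB1, the receptor for high-density lipoprotein, rose in both lines with different timing. In HepG2 it measured 40.48, 39.45 and 40.72 FPKM at 0 h, then 66.79, 65.84 and 65.53 at 24 h and then 52.3, 51.59 and 50.81 at 48 h. The KO-labelled libraries measured 36.76, 37.24 and 36.37 at 0 h, then 49.59, 47.33 and 48.31 at 24 h and then 63.22, 64.76 and 64.96 at 48 h. HepG2 peaked at 24 h and KO-labelled cells were highest at 48 h. The log2 change was 0.79 and 0.34 in HepG2 and 0.42 and 0.96 in KO-labelled cells (SE 0.02 each), so that the line difference in the change was -0.36 at 24 h and 0.62 at 48 h (adjusted p = 2.2e-08 and 6.3e-12). SCARB1 had the largest rise of the members at 24 h and the largest called fall from 24 h to 48 h (-0.44) in HepG2.

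NPC1L1, a sterol importer of the cell surface, fell at 24 h in both lines. Its FPKM was 19.14, 18.12 and 18.95 in HepG2 at 0 h, then 12.67, 12.72 and 13.22 at 24 h and then 13.77, 14.33 and 14.51 at 48 h. KO-labelled cells had values of 15.08, 14.84 and 13.28 at 0 h, then 9.2, 8.76 and 8.47 at 24 h and then 12.94, 12.92 and 13.22 at 48 h. The KO-labelled libraries came back at 48 h to within 0.01 of 0 h on the log2 scale (SE 0.04), and the line difference fell from -0.61 at 24 h to 0.02 at 48 h (SE 0.04). With library sizes alone these 2 differences at 48 h were -0.15 and -0.13. The rise from 24 h to 48 h in KO-labelled cells, 0.69, was the largest called rise of the members. The line difference in its 24 h change (-0.21, adjusted p = 0.014) was lost without the second HepG2 0 h library or any of 3 KO-labelled libraries (the first or second at 0 h, the third at 24 h), with an adjusted p of up to 0.079.

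STARD4, which carries cholesterol between membranes, measured 3.5, 3.59 and 3.64 FPKM in HepG2 at 0 h, then 2.9, 3.13 and 3.26 at 24 h and then 4.22, 3.96 and 4.09 at 48 h. Its KO-labelled libraries stood at 4.62, 4.17 and 4.03 at 0 h, then 4.31, 5.04 and 4.31 at 24 h and then 3.69, 3.14 and 3.51 at 48 h. It was higher in KO-labelled cells at 24 h (log2 fold change 0.49, SE 0.07, adjusted p = 1.4e-05), and the call at 0 h (0.23, adjusted p = 0.02) was lost without the first or second HepG2 or the first KO-labelled library. The line difference in its 48 h change (-0.33, adjusted p = 0.016) was lost without the first KO-labelled library at 0 h or the second at 48 h (adjusted p up to 0.056). MYLIP, a ubiquitin ligase induced by LXR, lay between 0.73 ± 0.168 and 0.943 ± 0.179 FPKM in all groups and was called in no comparison.

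**Figure D4:**
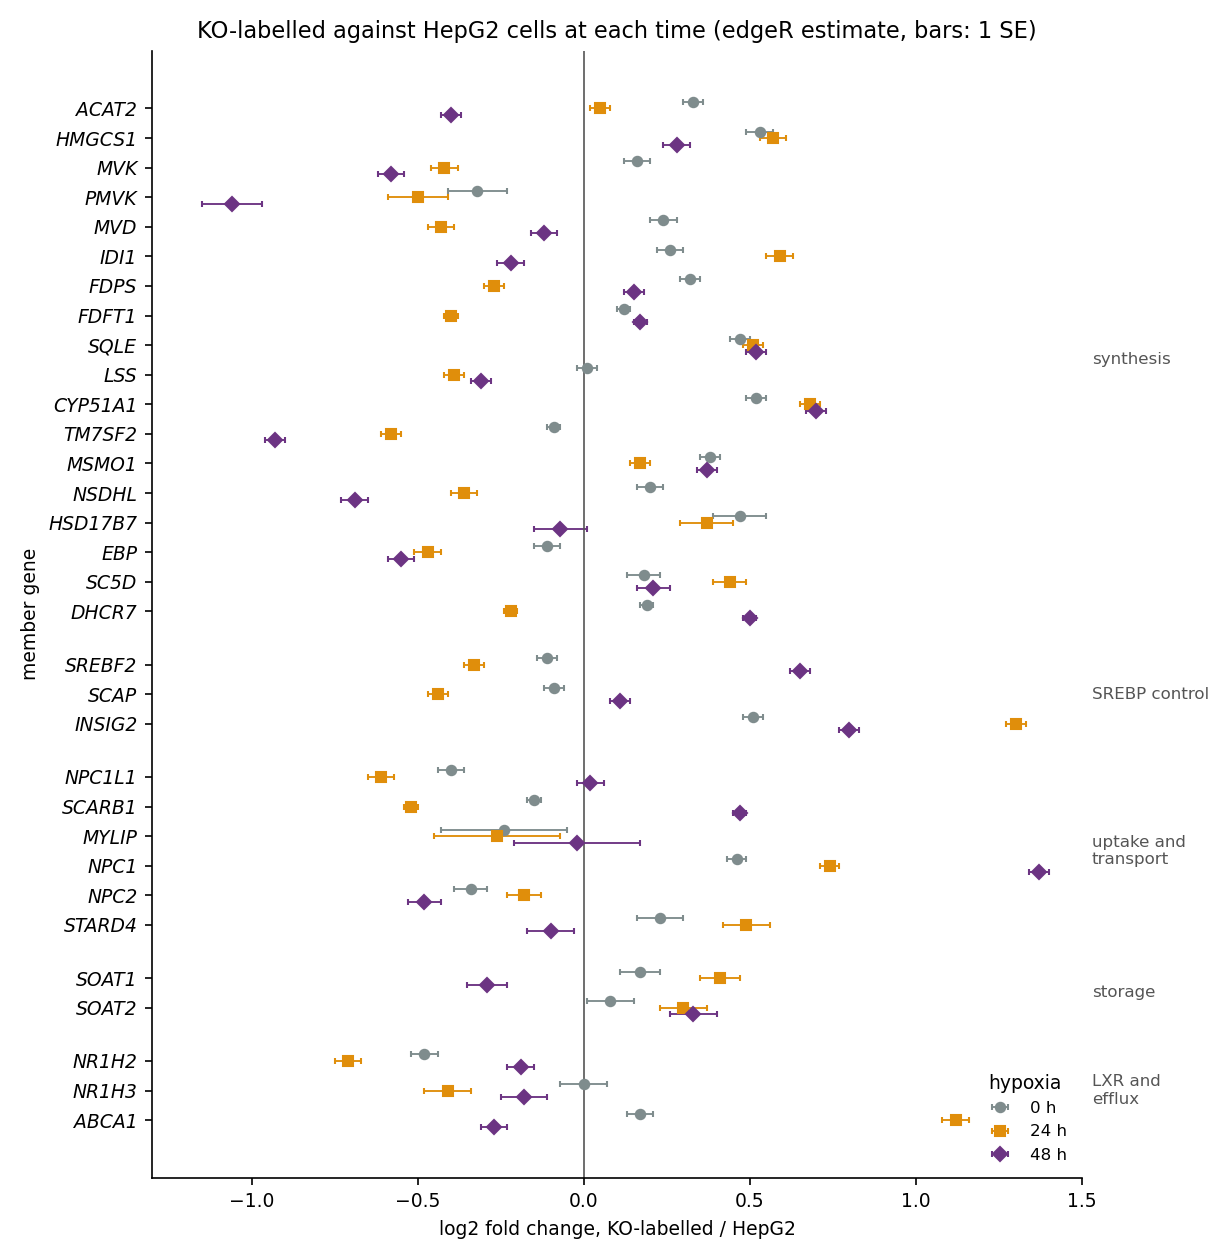
Log2 fold change of KO-labelled over HepG2 cells (horizontal axis) at 0 h, 24 h and 48 h for 32 members (vertical axis), with SE as bars, 3 libraries a group. INSIG1 and ABCG1, with few counts, are not drawn. Synthesis enzymes lie mostly right of 0 at 0 h and spread to both sides in hypoxia, with PMVK at -1.06 and NPC1 at 1.37 at 48 h.

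Both esterifying enzymes of storage were higher in KO-labelled cells at 24 h, and at 48 h SOAT2 was higher and SOAT1 lower. SOAT2, the form of hepatocytes and intestine, measured 10.93, 9.66 and 10.18 FPKM in HepG2 at 0 h, then 8.93, 7.75 and 8.54 at 24 h and then 11.31, 10.78 and 10.36 at 48 h. In KO-labelled cells it measured 11.16, 11.17 and 10.64 at 0 h, then 10.99, 10.4 and 11.12 at 24 h and then 11.27, 12.59 and 12.98 at 48 h. In FPKM the lines did not overlap at 24 h (0.30, SE 0.07, adjusted p = 0.00098) and overlapped at 48 h by 1 library (0.33, SE 0.07, adjusted p = 0.00034). In CPM scaled with TMM, as in the test, they did not overlap at 48 h (21.2 to 23.4 in HepG2, 25.5 to 29.7 in KO-labelled cells). The fall at 24 h in HepG2 (-0.22, adjusted p = 0.02) was lost without the first or the third 0 h library or the second 24 h library, and the line difference in the 48 h change (0.26, adjusted p = 0.041) under 15 of 27 alternatives. SOAT1, the widely expressed form, was higher in KO-labelled cells at 24 h (0.41, SE 0.06) and lower at 48 h (-0.29, SE 0.06), and in KO-labelled cells it fell by 0.51 on the log2 scale between these times.

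In the LXR and efflux arm, ABCA1 had a peak at 24 h in KO-labelled cells only, with a test of the line difference in its change of 0.95 (SE 0.06, adjusted p = 4.2e-10). ABCA1, the pump that loads cholesterol on apolipoprotein A-I, measured 5.68, 6.38 and 5.91 FPKM in HepG2 at 0 h, then 4.96, 4.92 and 4.95 at 24 h and then 7.07, 7.19 and 7.04 at 48 h. The KO-labelled libraries measured 6.88, 6.68 and 6.93 at 0 h, then 11.16, 11.76 and 10.77 at 24 h and then 5.18, 5.27 and 5.43 at 48 h. HepG2 dipped where KO-labelled cells peaked, and the order of the lines was opposite at 48 h, without overlap at any time. KO-labelled over HepG2, the log2 fold change was 0.17 before hypoxia, 1.12 after 24 h and -0.27 after 48 h (SE 0.04 each). In KO-labelled cells the step from 24 h to 48 h was -0.96, the largest called fall among the members there.

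The receptors did not show that peak. NR1H2, the widely expressed LXR, measured 9.93, 10.19 and 10.06 FPKM in HepG2 at 0 h, then 8.04, 8.6 and 8.35 at 24 h and then 8.66, 9.14 and 8.8 at 48 h. KO-labelled cells had values of 6.93, 7.38 and 7.65 at 0 h, then 5.56, 5.23 and 5.22 at 24 h and then 6.85, 7.14 and 7.02 at 48 h. It was lower in KO-labelled cells at each time, without overlap (-0.48, -0.71 and -0.19, SE 0.04 each), and was the member called furthest below HepG2 at 0 h and at 24 h. The line difference in its 48 h change (0.29, adjusted p = 0.00051) was lost with library sizes alone.

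NR1H3, the LXR of liver and macrophages, measured 6.69, 6.96 and 7.45 FPKM in HepG2 at 0 h, then 5.92, 6.06 and 5.63 at 24 h and then 6.79, 7.16 and 6.62 at 48 h. Its KO-labelled libraries stood at 7.01, 6.73 and 7.72 at 0 h, then 4.68, 4.26 and 4.91 at 24 h and then 5.09, 5.88 and 5.38 at 48 h. The lines overlapped at 0 h (0.00, SE 0.07) and differed at 24 h (-0.41, SE 0.07, adjusted p = 4.6e-05). Its calls at 48 h (-0.18, adjusted p = 0.036) and for the fall at 24 h in HepG2 (-0.19, adjusted p = 0.042) were each lost without any of 4 or more single libraries, with an adjusted p of up to 0.170 and 0.193. Its fall from 0 h to 48 h in KO-labelled cells (-0.23, adjusted p = 0.008) was lost without the third 0 h or the first 48 h library (up to 0.091). ABCG1, which passes cholesterol on to high-density lipoprotein, had counts between 0 and 46 and was called in no comparison.

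Synthesis was set beside the LXR and efflux genes, of which NR1H2 and NR1H3 are receptors and ABCA1 and ABCG1 exporters. In HepG2 the 18 enzymes were lower by a median of 0.28 on the log2 scale at 24 h and of 0.32 at 48 h, while NR1H2, NR1H3 and ABCA1 had medians of -0.20 and -0.05. In KO-labelled cells the medians were -0.47 and -0.68 for synthesis, and -0.43 and -0.21 for NR1H2, NR1H3 and ABCA1. With ABCG1, whose fitted values rest on few counts, the medians of the 4 LXR and efflux genes were -0.20 and 0.09 in HepG2 and -0.51 and -0.22 in KO-labelled cells. Of the 4, none rose and 3 fell at 24 h in HepG2 (all tested genes: 11.4% rose, 18.3% fell), and 1 rose and 1 fell at 48 h (13.1% and 14.6%). In KO-labelled cells 1 rose and 2 fell at 24 h (21.5% and 22.8%), and none rose and 2 fell at 48 h (23.9% and 25.9%).

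As a mean log2 CPM relative to HepG2 at 0 h, synthesis minus NR1H2, NR1H3 and ABCA1 was 0.00 ± 0.05, -0.10 ± 0.03 and -0.32 ± 0.03 in HepG2 at 0 h, 24 h and 48 h (SD, n = 3). In KO-labelled cells it was 0.32 ± 0.07, -0.13 ± 0.03 and -0.22 ± 0.05. The difference thus stood above that of HepG2 at 0 h in KO-labelled cells before hypoxia and below it in both lines at 48 h, and at 24 h the lines were within their spread of each other. The mean hides that ABCA1 and the receptors moved apart at 24 h in KO-labelled cells, where ABCA1 rose by 0.75 and NR1H2 and NR1H3 fell by 0.43 and 0.60.

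Counts over all 34 members follow, each with the shares of all tested genes in the same directions in parentheses. KO-labelled cells had 19 higher and 8 lower before hypoxia (12.9% and 17.6%), 14 higher and 17 lower after 24 h (23.6% and 24.6%), and 15 higher and 14 lower after 48 h (23.5% and 27.3%), or 11 and 17 with library sizes alone. In HepG2, 5 had risen and 21 fallen after 24 h (11.4% and 18.3%), and 3 had risen and 22 fallen after 48 h (13.1% and 14.6%). In KO-labelled cells 6 had risen and 21 fallen after 24 h (21.5% and 22.8%), and 7 had risen and 20 fallen after 48 h (23.9% and 25.9%). The line difference in the 24 h change was positive for 7 and negative for 17 (16.8% and 15.4%), and that in the 48 h change was positive for 10 and negative for 15 (18.6% and 17.8%), or 6 and 20 with library sizes alone. From 24 h to 48 h, 9 were higher and 10 lower in HepG2 (18.7% and 11.9%), or 16 and 6 with library sizes alone, and 13 and 13 in KO-labelled cells (21.9% and 19.4%). Both limits were passed by 3 members between the lines at 24 h (INSIG1, INSIG2 and ABCA1) and 3 at 48 h (PMVK, INSIG1 and NPC1), by 2 in HepG2 from 0 h to 48 h (INSIG1 and INSIG2), and in KO-labelled cells by 5 from 0 h to 24 h and 7 from 0 h to 48 h, the enzymes above with INSIG2 and, for the latter, INSIG1. Of all tested genes 7.77%, 13.6%, 2.18%, 5.88% and 12.2% did so. In the 6 other comparisons no member did, where the share of all genes was 4.31% (lines at 0 h), 3.08% (HepG2 at 24 h), 2.12% and 5.66% (24 h to 48 h in HepG2 and in KO-labelled cells), 2.59% and 7.42% (line difference in the 24 h and the 48 h change). Of 374 results for a member in a comparison 286 passed, and 243 of these kept their call under all 27 alternatives.

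The other genes of the pathway were a list of 26, of which 25 were tested. Of these, KO-labelled cells had 5 higher and 6 lower before hypoxia (all tested genes: 12.9% and 17.6%), 9 higher and 9 lower after 24 h (23.6% and 24.6%), and 12 higher and 8 lower after 48 h (23.5% and 27.3%). From 0 h to 48 h 5 were higher and 9 lower in HepG2 (13.1% and 14.6%) and 11 and 9 in KO-labelled cells (23.9% and 25.9%). GRAMD1A, which carries sterol from the cell membrane to the endoplasmic reticulum, measured 16.73, 17.29 and 16.72 FPKM in HepG2 at 48 h and 43.44, 45.41 and 44.26 in KO-labelled cells (log2 fold change 1.54). NCEH1, a hydrolase of cholesterol esters, was higher by 1.15 at 48 h. CETP, which exchanges cholesterol esters between lipoproteins, was higher by 1.66 at 0 h and by 1.68 at 48 h, and at 24 h it did not pass (0.50, adjusted p = 0.052). Its counts were low, with 62 to 91 a library in HepG2 at 0 h and 363 to 429 in KO-labelled cells at 48 h, their highest group. ABCG8, a subunit of the biliary sterol exporter, was lower by 1.02 on the log2 scale at 48 h. VLDLR, a receptor of triglyceride-rich lipoproteins, rose by 1.03 from 0 h to 48 h in HepG2 and by 1.25 in KO-labelled cells, and ERG28, a scaffold of the C4 demethylation enzymes, fell by 1.07 in KO-labelled cells, where HepG2 was not past both limits.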

How the data were processed

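Total RNA was isolated with TRIzol and poly(A) RNA was purified from it. Per the labels, second strands were made with dUTP and digested before amplification, while the study's methods name only a NEBNext Ultra kit. The authors used fastp for trimming, HISAT2 for alignment to Ensembl GRCh38.p13 and featureCounts for counting per gene, and the submitters' notes also name StringTie. The strand setting of the counting is not given in the sources used here. The deposited counts are whole numbers without normalization, and counts of 4, 8 and 12 were over-represented (ratios 2.66 to 3.12, 2.06 to 2.55 and 1.58 to 2.19), so a count need not be 1 read pair. The deposited FPKM values are these counts divided by a fixed gene length and the library total (median deviation 0.096% over 1307 genes). Total counts were 76481820 to 91604947, and the chi-square per gene between replicates was 10.3 to 23.4 over 18 pairs, so none was a copy of another.

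Counts were tested with edgeR 4.0.16 (R 4.3.3): filterByExpr on the 6 groups, TMM (factors 0.925 to 1.042), a quasi-likelihood fit of all 18 libraries with a term for each group, and Benjamini-Hochberg adjustment over all 19743 genes tested in each of 11 comparisons. A call is an adjusted p under 0.05, and both limits add a log2 change of 1 in size. Data were simulated for the lines at 48 h (19743 genes), with 100 genes changed by 1 on the log2 scale and 100 by 0.4. Of genes of any level, 54% of those changed by 1 were recovered and 33% of those changed by 0.4. Where the mean count reached 1000 the shares were 97.1% and 86.5% (of 34 and 37 genes). Far more genes were called in the data at 48 h (23.5% higher and 27.3% lower), so these shares need not carry over. Mean scores used log2 CPM without a prior count, and the correlations of deviations between libraries used log2 CPM with a prior count of 2. Values in every library are given for 11 members chosen by role and for the members with the largest called change in each direction of each comparison. The members, lists and roles were chosen with earlier results of these data known. Motifs were searched in RefSeq promoters, and overlaps and exons are from GENCODE v29 (GRCh38), which need not be the authors' release.

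Alternatives were other scalings (RLE, library size alone), no filter or a mean of at least 1 CPM, DESeq2 1.42.0, limma 3.58.1 on log2(FPKM + 1) and log2(FPKM + 0.1), a fit of the compared groups alone, the replicate number as a block, and leaving out each library. Plots were drawn with matplotlib 3.10.9. Some genes of the pathway are not reported here.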

Additional observations from a re-analysis of the deposited data

Results flagged for a closer look

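The genes below were flagged because their change from 0 h differed between the lines by a log2 difference of at least 1 in a test of the difference itself (edgeR, adjusted over all tested genes). In the 24 h change, KO-labelled minus HepG2, VLDLR differed by 1.01 (SE 0.12, adjusted p = 2.5e-06), CETP by -1.16 (SE 0.29, adjusted p = 0.004) and APOA4 by -1.12 (SE 0.11, adjusted p = 3.4e-07). CETP had low counts, with 62 to 91 a library in HepG2 at 0 h and 103 to 201 in KO-labelled cells at 24 h. In the 48 h change, GRAMD1A differed by 1.47 (SE 0.05, adjusted p = 4.3e-14), NCEH1 by 1.10 (SE 0.07, adjusted p = 4.5e-10) and APOA4 by -1.07 (SE 0.11, adjusted p = 4.0e-07). None of the 34 members passed both limits in these tests, the largest called differences being those of ABCA1 at 24 h (0.95) and NPC1 at 48 h (0.91).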

How the results depend on the processing

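Of 286 calls, 243 were kept under all 27 alternatives, 40 were lost and 4 reversed under some. The 4 were CYP51A1 (HepG2, 24 h to 48 h, and KO-labelled, 0 h to 48 h), DHCR7 (KO-labelled, 0 h to 48 h) and SCAP (lines, 48 h), and the other sign changes below are of results that were not calls. Sign changes came with library sizes alone and with limma on log2(FPKM + 1) and log2(FPKM + 0.1), which keep the scaling by library totals, and values follow in that order. In KO-labelled cells from 24 h to 48 h, FDPS gave -0.09, -0.08 and -0.09 and EBP -0.12 each. In the same cells from 0 h to 48 h CYP51A1 gave -0.08, DHCR7 -0.09 and SCAP -0.10 each, and NPC1L1 -0.15, -0.13 and -0.14. Between the lines at 48 h SCAP gave -0.04 each and NPC1L1 -0.13, -0.12 and -0.12. The line difference in the 48 h change was -0.13 each for FDFT1 and SQLE, and CYP51A1 in HepG2 from 24 h to 48 h gave 0.01 each. With library sizes alone the median of all genes was -0.19 (lines at 48 h), -0.23 (0 h to 48 h, KO-labelled), -0.21 (line difference of that change), -0.18 (24 h to 48 h, KO-labelled), -0.11 (0 h to 24 h, HepG2) and 0.10 (24 h to 48 h, HepG2).

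No count of called members or synthesis enzymes, both directions together, moved by over 1.5 times. The medians below moved by more than 1 SD between replicates of a typical gene of the list (0.042 for synthesis, 0.067 for the LXR and efflux genes), and the cause was not tested. Synthesis medians with library sizes alone, limma + 1 and limma + 0.1 were -0.18 each (lines, 24 h), -0.25, -0.21 and -0.24 (lines, 48 h), -0.35, -0.34 and -0.35 (HepG2, 0 h to 24 h), 0.03 each (HepG2, 24 h to 48 h), -0.84, -0.78 and -0.84 (KO-labelled, 0 h to 48 h), -0.29, -0.25 and -0.28 (KO-labelled, 24 h to 48 h), -0.28, -0.27 and -0.28 (line difference, 24 h change) and -0.51, -0.49 and -0.51 (line difference, 48 h change). For HepG2 from 0 h to 48 h limma + 1 gave -0.27. The lines at 48 h gave -0.04 with RLE, DESeq2 or the 1 CPM filter. That filter gave -0.22 for HepG2 from 0 h to 24 h, as did the compared groups alone, and -0.11 from 24 h to 48 h.

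Efflux medians are those of the LXR and efflux genes, receptors included. With library sizes alone they were -0.38 (lines, 48 h), -0.27 (HepG2, 0 h to 24 h), 0.37 (HepG2, 24 h to 48 h), -0.38 and 0.31 (KO-labelled, 0 h to 48 h and 24 h to 48 h) and -0.48 (line difference, 48 h change). With limma + 1 they were -0.15 (lines, 24 h), -0.00 and 0.14 (HepG2, 0 h to 48 h and 24 h to 48 h), -0.23 and 0.11 (KO-labelled, 0 h to 24 h and 24 h to 48 h), and -0.08 and -0.18 (line difference, 24 h and 48 h change). With limma + 0.1 they were -0.21 and -0.35 (lines, 24 h and 48 h), -0.27 (HepG2, 0 h to 24 h), -0.34 and 0.20 (KO-labelled, 0 h to 48 h and 24 h to 48 h), and -0.18 and -0.41 (line difference, 24 h and 48 h change). The 1 CPM filter, which removes ABCG1, gave -0.41 and -0.13 (lines, 24 h and 48 h), -0.06 and 0.07 (HepG2, 0 h to 48 h and 24 h to 48 h), -0.41 and 0.36 (KO-labelled, 0 h to 24 h and 24 h to 48 h) and -0.16 (line difference, 48 h change). The compared groups alone gave -0.40 (lines, 24 h) and 0.35 (KO-labelled, 24 h to 48 h).

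Leaving out single libraries gave synthesis medians of -0.15 to -0.06 (lines, 48 h), -0.32 to -0.25 (HepG2, 0 h to 48 h), -0.06 to -0.01 (HepG2, 24 h to 48 h), -0.69 to -0.64 (KO-labelled, 0 h to 48 h) and -0.34 to -0.27 (line difference, 24 h change). Efflux medians were -0.09 to 0.11 and -0.57 to -0.47 (lines, 0 h and 24 h) and -0.30 to 0.48 (KO-labelled, 24 h to 48 h). The last was negative without the third 48 h library, the only one of its group with ABCG1 counts (35).

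Replicate numbers did not pair the libraries: over 45 same-numbered pairs the correlation of deviations from the group means was -0.14 to 0.05, none over 0.1, and 0 of 18 libraries correlated best with their own number. With the replicate number as a block 370 of 374 results kept their status, called or not called, and 4 calls were lost. With DESeq2 356 kept their status, 8 calls were gained and 10 lost.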
